A study of Homo sapiens with 6 samples.

Results

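The genes examined here lie along 21q, the long arm of human chromosome 21. They were the protein-coding genes placed on that arm (GRCh37) and selected on their mean level over all libraries, at 16 or more CPM (read counts scaled to a common library size) on library totals, after some genes were set aside by name or family. Of 223 protein-coding genes of 21q in the tables, 90 reached this level, 10 of them were set aside, and 80 remained as members. The whole tables listed 63677 identifiers, of which 14286 passed a filter on low counts and were tested, all 80 members among them. The RNA came from the human colorectal adenocarcinoma line SW480, whose cells carried a doxycycline-inducible lentiviral vector for either green fluorescent protein (GFP, the control) or POU5F1B. There were 3 libraries in each of the 2 groups, all from polyA RNA of cells given 1 µg/mL doxycycline for 72 h, so both groups shared the drug and the transduction. The labels do not say whether libraries of a group came from separate transductions or cultures, and p-values therefore measure the spread between these libraries, which may be technical.

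Chromosome 21 is the smallest human autosome, and its short arm holds ribosomal RNA genes, so that nearly all of its protein-coding genes are on the long arm. Genes of one arm share a stretch of DNA and not a pathway, and 21q holds enzymes, splicing factors, chromatin proteins and receptors side by side. An extra copy of the chromosome is the basis of Down syndrome, in which many of its genes are transcribed at a higher level. The products of the vectors are a fluorescent protein with no role in human cells and POU5F1B, encoded by a retrogene copy of the gene for OCT4. OCT4 binds DNA at an octamer motif. The study reported that POU5F1B, unlike OCT4, was mostly cytoplasmic and enriched in membranes. Its chromatin immunoprecipitation found no significant recruitment of POU5F1B to the genome.

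The overexpressed gene was examined first. POU5F1B had 6, 5 and 1 counts in GFP replicates 1, 2 and 3 and 15027, 11393 and 1458 counts in the POU5F1B libraries. The libraries held 10767947 to 12787637 counts, and both replicate 3 libraries stood apart from the other libraries of their group, GFP replicate 3 most of all, with a sample quality weight of 0.111 against 0.575 to 2.79 in the rest. Of 10 epithelial markers, 7 were at 1 CPM or more in every library, while CDX1 and LGALS4 stayed under 1 CPM. Some were lowest in GFP replicates 1 and 2: EPCAM had 1030, 1174 and 5962 counts in GFP cells against 4073, 3569 and 3029 in POU5F1B cells, and CDH1 had 400, 396 and 836 against 2085, 1711 and 1181. The 10 markers together summed to 6878, 6535 and 8896 CPM in GFP cells and 8536, 7925 and 9160 CPM in POU5F1B cells. Markers of fibroblasts, endothelium and blood cells, of which 10 of 11 had an entry, summed to 179 and 158 CPM in GFP replicates 1 and 2, 24.3 in GFP replicate 3, and 22.96, 18.3 and 26.1 in the POU5F1B libraries. In GFP replicates 1 and 2 most of that sum was the collagen gene COL1A1, whose counts were 1681, 1553 and 194 in GFP cells against 86, 60 and 114 in POU5F1B cells. PTPRC, CD3E, CDH5 and DCN had at most 3 counts in any library. GFP replicates 1 and 2 thus differed from the other 4 libraries in EPCAM, CDH1 and COL1A1, but not every marker followed this split. CDX2 was lowest in POU5F1B replicates 1 and 2, with 329, 256 and 381 counts in GFP cells against 208, 158 and 445. VIL1 was highest in both replicate 3 libraries, with 274, 184 and 2420 against 543, 406 and 1332. VWF had 71, 68 and 13 against 81, 52 and 30. The part of these differences in the results on 21q was not tested. In bulk RNA, fewer cells of a type and less RNA per cell cannot be told apart.

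To ask how the genes of 21q differed between POU5F1B and GFP cells, their shift was measured in each library. The 80 members together made up 0.627% of all reads counted for GFP replicate 1 (95% Wilson bounds 0.623 and 0.632%), 0.625% in GFP replicate 2 (0.621 to 0.630%) and 0.764% in GFP replicate 3 (0.759 to 0.769%). In POU5F1B cells the shares were 0.849% (0.844 to 0.854%), 0.842% (0.837 to 0.848%) and 0.819% (0.814 to 0.824%). The 3 POU5F1B libraries were above the 3 GFP libraries, and GFP replicate 3 lay between, well above its group. These intervals cover counting error only.

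Gene by gene, 70 of the 80 members had a log2 fold change (POU5F1B over GFP) above 0 in limma voom, against 46.9% of all tested genes. The median over members was 0.32, or 1.25-fold, with quartiles of 0.15 and 0.46 and a range from -0.85 for TTC3 to 1.02 for SIK1. Over all tested genes the median was -0.023, and over 8176 other protein-coding genes at the same CPM limit it was -0.022. With limma voom 0 members passed the threshold of an adjusted p-value under 0.05 and a change above 2-fold, as did 0% of all genes tested, and the smallest adjusted p-value of a member was 0.203. Over all genes tested the smallest adjusted p-value with limma voom was 0.122, so the overexpressed POU5F1B did not pass either. At an unadjusted p-value under 0.05, 30 members (37.5%) were higher, against 6.07% of all genes tested, and 0 members were lower, against 5.82%. The edgeR quasi-likelihood test also passed 0 members, with 27 higher at an unadjusted p-value under 0.05 (5.93% of all genes tested), and DESeq2 passed 0, with 8 higher at an adjusted p-value under 0.05 (1.3% of all genes tested). Every POU5F1B library exceeded every GFP library for 31 members (38.8%; 10.2% of all genes tested), and 0 members showed the reverse (9.24% of all genes tested). In each same-numbered pair of libraries POU5F1B was above GFP for 41 members (51.2%), against 19% of all genes tested.

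The size of the shift differed between same-numbered pairs of libraries, which are compared here only as a description. In pair 1 the median difference in log2 CPM, POU5F1B minus GFP, was 0.54, with 76 of 80 members higher. In pair 2 it was 0.47, with 74 of 80 members higher. In pair 3 it was 0.07, with 47 of 80 members higher. Over all tested genes the 3 medians were 0.015, 0.011 and 0.0073. On library totals in place of TMM the median of pair 3 was 0.22 (58 of 80 higher) over members and 0.15 over all tested genes. The shift of replicates 1 and 2 was therefore not seen at that size in replicate 3, and the difference between the pairs was not tested.

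When replicates 1 and 2 were averaged, 75 of 80 members were higher, by a median of 0.51 on the log2 scale (1.42-fold). For 54 members (67.5%) this difference lay between 0.25 and 0.75, for 12 it was 0.75 or more, for 9 it was between 0 and 0.25, and for 5 it was below 0. Its standard deviation over members was 0.26, against 0.51 over the other protein-coding genes at the same CPM limit. The distance between its quartiles was 0.33 over members and 0.45 over those other genes. On the arms 2p, 7q and 18q that distance was 0.35, 0.42 and 0.31, so a spread as narrow as that of the members was also seen on 18q. Over the 10 genes of 21q set aside, the standard deviation was 0.57 and the distance between quartiles was 0.66. The narrower spread thus holds for the members and not for the genes set aside. These differences in spread were not tested. Fitted on replicates 1 and 2 alone, limma voom gave an adjusted p-value under 0.05 for 54 members, all higher (67.5%, against 14.1% of all genes tested), and for 0 lower (15.5% of all genes tested). With GFP replicate 3 alone left out, 35 members were higher at an adjusted p-value under 0.05 (43.8%, against 5.07%), 52 were higher at an unadjusted p-value under 0.05 (13.8% of all genes tested), and 0 were lower at either (7.02% of all genes tested at the adjusted one). Few members also exceeded a 2-fold change: 1 of 80 with replicates 1 and 2 alone (8.36% of all genes tested), 2 with sample quality weights (7.54%) and 2 without GFP replicate 3 (4.16%), each share of the members being under that of all genes.

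To describe the shift along position, the members were ordered from the centromere to the telomere and divided into 5 Mb windows. The first member was HSPA13 at 15743436 and the last was PRMT2, which ends at 48085036. The windows starting at 15, 25, 30, 35, 40 and 45 Mb held 2, 4, 19, 15, 17 and 23 members, and no member started between 20 and 25 Mb. In replicates 1 and 2 their median differences were 0.42, 0.47, 0.53, 0.51, 0.58 and 0.36 on the log2 scale. The shift was above 0 in each window, with the lowest median in the window nearest to the telomere. That order was not kept after the correction for GC content and transcript length, under which the medians were 0.29, 0.42, 0.52, 0.52, 0.56 and 0.49. Across members it had a Spearman correlation of -0.16 with start position (n = 80 genes of the same libraries), given as a description.

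In pair 3 the window medians were -0.06, -0.33, -0.07, -0.006, 0.15 and 0.27 from centromere to telomere. The difference was thus near or below 0 over most of the arm and above 0 toward the telomere, with a Spearman correlation of 0.37 with start position. In limma voom over all 6 libraries the window medians were 0.26, 0.19, 0.32, 0.31, 0.33 and 0.37. In the window from 45 Mb all 23 members had a log2 fold change above 0 (46.9% of all genes tested). Of them, 12 were higher at an unadjusted p-value under 0.05 in limma voom (6.07% of all genes tested). The same number had groups that did not overlap, with POU5F1B higher (10.2% of all genes tested). In the windows from 15, 25, 30, 35 and 40 Mb these counts were 1, 0, 6, 5 and 6 by p-value and 1, 0, 6, 5 and 7 by groups.

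**Figure D1:**
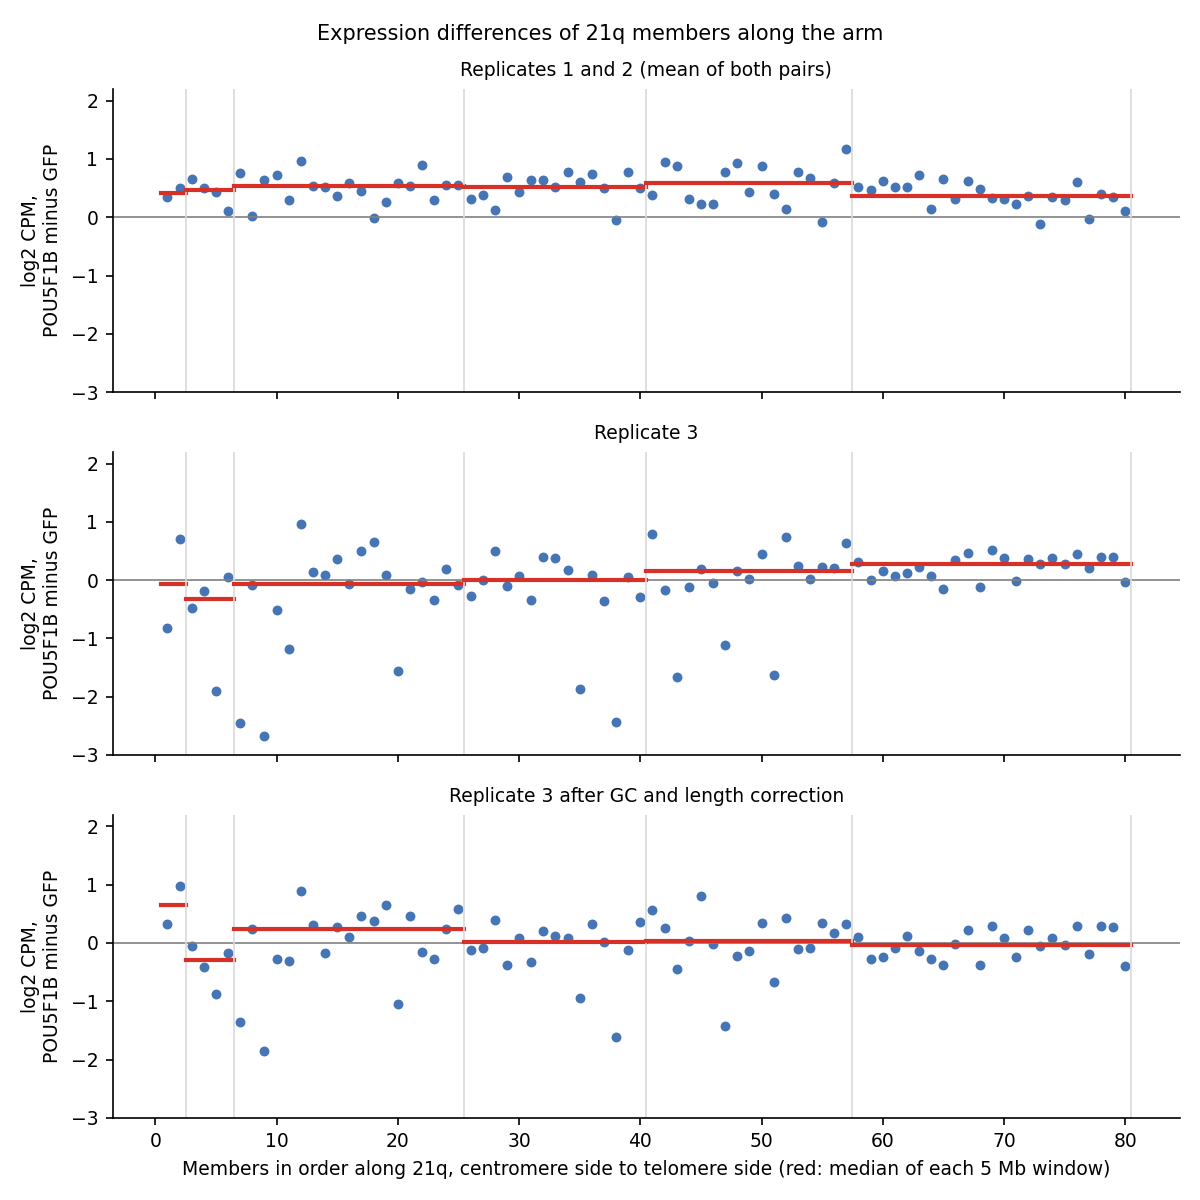
Difference in log2 CPM, POU5F1B minus GFP, of the 80 members in order from the centromere side to the telomere side; each point is 1 gene, red lines are medians of 5 Mb windows and gray vertical lines are window edges. In replicates 1 and 2 (top) 75 of 80 points lie above 0, in replicate 3 (middle) 47 do, and after correction for GC content and transcript length (bottom) 40 do.

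Each library was then set against the mean of all 6 for each gene. The median deviation of the members was -0.32, -0.27 and 0.07 in GFP replicates 1, 2 and 3, and 0.20, 0.19 and 0.12 in POU5F1B replicates 1, 2 and 3 (log2 scale). GFP replicate 3 was nearer to the POU5F1B libraries than to its own group. Relative to GFP replicates 1 and 2, GFP replicate 3 was higher by a median of 0.33 over members and by 0.06 over protein-coding genes elsewhere at the same CPM limit. By the same measure the medians were 0.52 on 2p, -0.07 on 7q and 0.90 on 18q, so a rise in GFP replicate 3 was not particular to 21q. Over the 10 genes of 21q set aside the median was 0.002. The values for members and for genes elsewhere depended on the scaling: on library totals in place of TMM they were 0.20 and -0.06. POU5F1B replicate 3, in which POU5F1B itself was lowest, differed from POU5F1B replicates 1 and 2 by a median of -0.07 over members.

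GC content moved with the departures of both replicate 3 libraries. Members were divided into 4 classes of 20 by the GC content of their longest coding transcript. In the lowest class (34.5 to 43.2% GC) GFP replicate 3 exceeded GFP replicates 1 and 2 by a median of 1.01 on the log2 scale, while in the other classes the medians were 0.26, 0.26 and 0.22. Its Spearman correlation with GC content was -0.39 over members and -0.49 over protein-coding genes elsewhere. POU5F1B replicate 3 differed from POU5F1B replicates 1 and 2 by medians of -0.27, -0.11, -0.05 and 0.07 from the lowest to the highest class. Here the correlation was 0.56 over members and 0.45 elsewhere. The difference of pair 3 was -0.65, 0.05, 0.36 and 0.26 from the lowest to the highest class, and its Spearman correlation with GC content was 0.59 over members and 0.61 over protein-coding genes elsewhere. In contrast, the difference in replicates 1 and 2 was 0.51, 0.52, 0.50 and 0.38 in these classes, with a Spearman correlation of -0.08 over members and -0.30 over protein-coding genes elsewhere. GC content also differed along the arm, with a median of 44.1% in the window from 30 Mb and 56.1% in the window from 45 Mb.

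After a correction of each library for GC content and transcript length, chosen once the data had been seen, the medians of pairs 1 and 2 were 0.58 and 0.50, with 78 of 80 members higher in each. The median of pair 3 was 8.7e-05, with 40 of 80 members higher, and its Spearman correlation with position was -0.025. The median deviations of the libraries were then -0.32, -0.29 and 0.10 in GFP cells and 0.22, 0.21 and 0.10 in POU5F1B cells. GFP replicate 3 exceeded GFP replicates 1 and 2 by a median of 0.44, with 63 of 80 members higher. The corrected medians of both replicate 3 libraries were hence 0.10, above GFP replicates 1 and 2 and below POU5F1B replicates 1 and 2. In the limma voom test on corrected values 76 of 80 members had a log2 fold change above 0, and 0 passed the threshold, with 30 higher at an unadjusted p-value under 0.05 (8.64% of all genes tested).

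**Figure D2:**
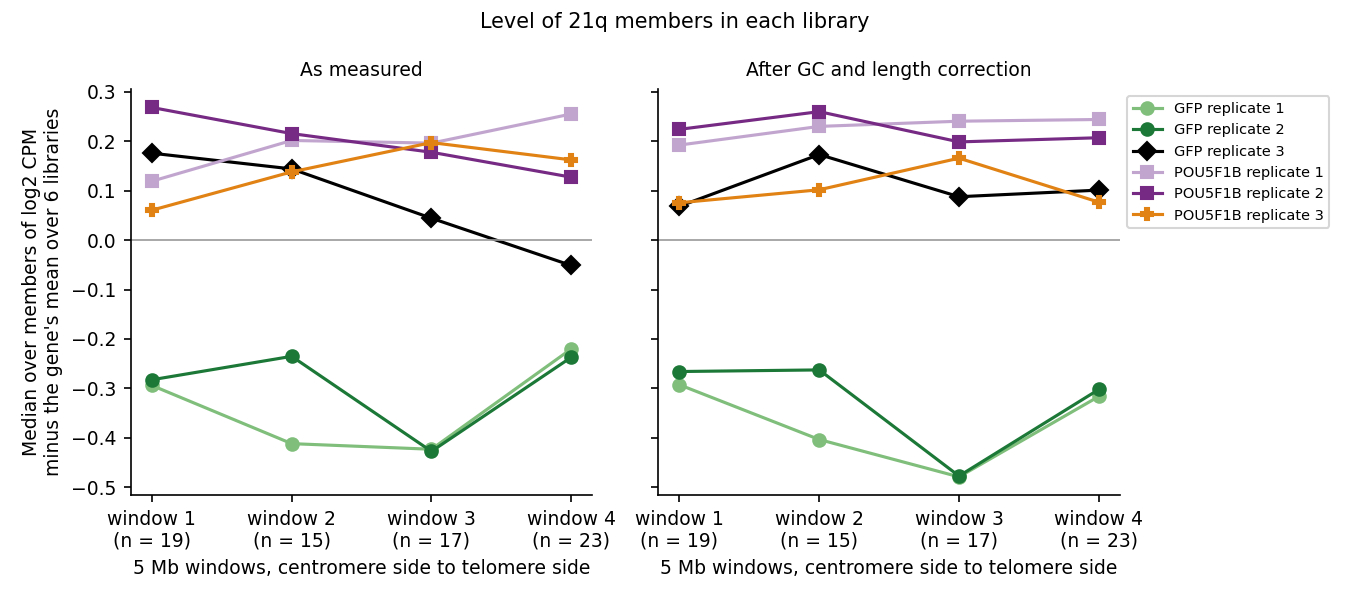
Median over members of the deviation in log2 CPM from each gene's mean over the 6 libraries, by 5 Mb window, for the 4 windows with 15 or more members, as measured (left) and after correction for GC content and transcript length (right); each line is 1 library. GFP replicates 1 and 2 lie below 0 in each window drawn, and after correction GFP replicate 3 lies above 0 in each.

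**Figure D3:**
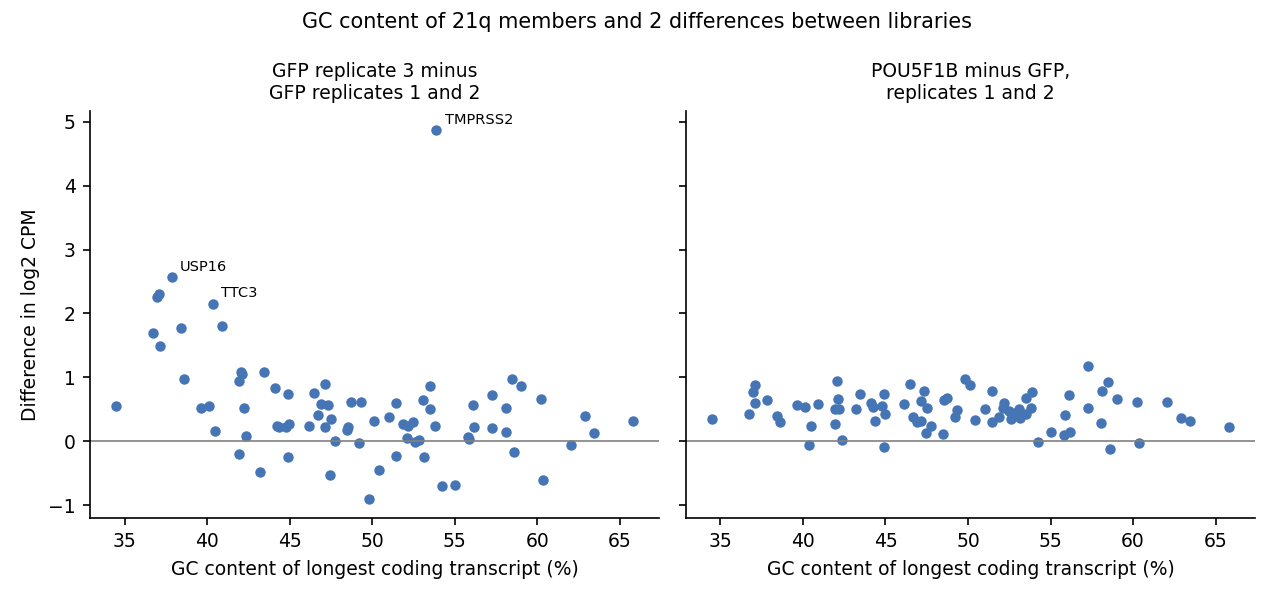
GC content of the longest coding transcript (%) against the difference in log2 CPM between GFP replicate 3 and GFP replicates 1 and 2 (left) and between POU5F1B and GFP in replicates 1 and 2 (right); each point is 1 of the 80 members. In the left panel the members under about 43% GC reach the highest values apart from TMPRSS2, while in the right panel most members lie between 0 and 1 at each GC content.

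The member with the highest log2 fold change was SIK1 (ENSG00000142178; 44834363 to 44847011, minus strand), a salt-inducible kinase of the cAMP and LKB1 pathways. It was at 19.97, 18.3 and 31.5 CPM in GFP cells and 49.1, 38.5 and 49.0 CPM in POU5F1B cells. All POU5F1B libraries were above all GFP libraries, of which replicate 3 was the highest. It differed by 1.02 ± 0.23 (SE) on the log2 scale (adjusted p = 0.223 with limma voom), and with replicates 1 and 2 alone it was 1.18 (adjusted p = 1.4e-04). C2CD2, a C2 domain protein (43305221 to 43374127, minus strand), was at 28.6, 30.3 and 36.6 CPM in GFP cells and 55.8, 52.4 and 50.0 in POU5F1B cells. It had the smallest adjusted p-value among members, at 0.74 ± 0.14 on the log2 scale (adjusted p = 0.203 with limma voom).

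The bases before the transcript start of both genes are given because these members had the highest log2 fold change and the smallest p-value, and that of CRYZL1 because it was the one member window with an octamer. Starts are those of the RefSeq promoter table, in which 68 of the 80 members had an entry, with 111 windows of 250 bases. The windows printed were located in GRCh37 by an exact match, on the minus strand of chromosome 21 and 5′ to 3′, at chr21:44847012-44847261 for SIK1, chr21:43374128-43374377 for C2CD2 and chr21:35014048-35014297 for CRYZL1. The CRYZL1 start is 2185 bases inside the gene's annotated 5′ end. Capitals mark the octamer, ATGCAAAT or its reverse complement ATTTGCAT.
SIK1: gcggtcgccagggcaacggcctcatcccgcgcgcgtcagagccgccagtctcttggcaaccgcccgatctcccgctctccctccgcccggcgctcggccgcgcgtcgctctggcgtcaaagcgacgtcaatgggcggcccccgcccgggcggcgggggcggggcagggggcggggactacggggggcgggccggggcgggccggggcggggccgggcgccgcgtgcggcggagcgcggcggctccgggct
C2CD2: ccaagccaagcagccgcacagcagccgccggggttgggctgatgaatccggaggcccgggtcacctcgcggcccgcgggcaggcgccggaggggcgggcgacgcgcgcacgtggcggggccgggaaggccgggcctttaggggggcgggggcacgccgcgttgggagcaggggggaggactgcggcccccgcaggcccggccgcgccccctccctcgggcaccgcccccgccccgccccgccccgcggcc
CRYZL1: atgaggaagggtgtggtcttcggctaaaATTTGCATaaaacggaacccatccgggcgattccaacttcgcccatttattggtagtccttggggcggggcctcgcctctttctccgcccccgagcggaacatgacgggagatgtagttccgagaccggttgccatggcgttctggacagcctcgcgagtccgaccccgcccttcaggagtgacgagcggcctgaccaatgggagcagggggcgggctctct
On both strands, the octamer was found in 1 of the 111 member windows (0.901%) and in 573 of 35116 windows of the whole table (1.63%). The member windows had a median of 25 CpG and 69.6% GC, against 11 and 58.0% in the whole table. The SIK1 and C2CD2 windows held 45 and 36 CpG and no octamer, which says only that these letters are not in them. CRYZL1, a quinone reductase-like protein, was at 11.04, 14.7 and 18.4 CPM in GFP cells and 17.2, 20.7 and 17.2 in POU5F1B cells (log2 fold change 0.34 ± 0.23, limma voom adjusted p = 0.588).

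Of the other genes whose groups did not overlap, TIAM1, WDR4 and DOP1B had the next largest differences. TIAM1, an exchange factor that activates the GTPase RAC1, was at 50.5, 49.6 and 26.5 CPM in GFP cells and 96.0, 100.2 and 51.7 in POU5F1B cells. Both replicate 3 libraries were lower than the rest of their group, yet the difference was similar in each pair (0.93, 1.01 and 0.96 on the log2 scale; limma voom log2 fold change 0.96 ± 0.35, adjusted p = 0.357). WDR4, a subunit of a tRNA methyltransferase, was at 27.7, 28.2 and 40.1 CPM in GFP cells and 50.4, 46.1 and 47.5 in POU5F1B cells (0.61 ± 0.17, adjusted p = 0.288 with limma voom). DOP1B, which acts in endosome to Golgi traffic, was at 33.8, 31.8 and 49.4 CPM in GFP cells and 59.7, 53.6 and 55.6 in POU5F1B cells (0.59 ± 0.19, adjusted p = 0.317 with limma voom). For WDR4 and DOP1B it was GFP replicate 3 that came near to the POU5F1B libraries.

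The members were grouped by role, in 8 lists and a remainder, and each list was described by its counts and its median. Over all tested genes, by comparison, the median was -0.023, 46.9% were above 0 and 6.07% were higher at an unadjusted p-value under 0.05. Of 11 members in RNA processing and ribosome assembly, 10 had a log2 fold change above 0 and 7 had an unadjusted p-value under 0.05, all higher, with a median of 0.46. URB1, a ribosome assembly factor, was at 172, 162 and 169 CPM in GFP cells and 237, 219 and 241 in POU5F1B cells. Here GFP replicate 3 lay within its group and the POU5F1B libraries stood clear of it (log2 fold change 0.47 ± 0.10, limma voom adjusted p = 0.207). MCM3AP, which encodes the scaffold of an mRNA export complex, was at 140, 134 and 163 CPM against 210, 205 and 221 (0.55 ± 0.11, adjusted p = 0.207 with limma voom). PAXBP1, picked after its values were seen, was the 1 member of this list below 0, at -0.12 ± 0.50, with 84.1 CPM in GFP replicate 3 and 21.1 to 40.1 CPM in the other 5 libraries.

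All 11 metabolic enzymes and transporters had a log2 fold change above 0, with a median of 0.37, and 6 had an unadjusted p-value under 0.05. CBR1, a carbonyl reductase, was at 57.4, 59.0 and 60.2 CPM in GFP cells and 82.2, 84.3 and 78.3 in POU5F1B cells. Both groups were tight and apart (0.47 ± 0.11, limma voom adjusted p = 0.220). PDXK, the kinase that makes active vitamin B6, was at 142, 135 and 160 CPM against 218, 182 and 198 (0.45 ± 0.12, adjusted p = 0.265 with limma voom). PIGP, a subunit of the enzyme that starts the GPI anchor and one of the least expressed members, was at 11.46, 13.7 and 24.2 CPM in GFP cells and 17.8, 18.1 and 18.7 in POU5F1B cells, and its groups overlapped.

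Among 13 receptors, signalling and secreted proteins, all were above 0, with a median of 0.33, and 4 had an unadjusted p-value under 0.05. Beside SIK1 and TIAM1 these included TRPM2, a calcium-permeable cation channel, at 28.4, 33.8 and 29.7 CPM in GFP cells and 52.5, 43.0 and 41.0 in POU5F1B cells (0.57 ± 0.16, limma voom adjusted p = 0.282). The fourth was PTTG1IP, which binds the securin PTTG1, at 508, 462 and 412 CPM against 598, 600 and 533 (0.33 ± 0.11, adjusted p = 0.350 with limma voom). APP, the amyloid precursor, was by contrast nearly level, at 523, 438 and 539 CPM in GFP cells and 510, 524 and 558 in POU5F1B cells (0.09 ± 0.11). ICOSLG, a ligand of a T cell costimulatory receptor, was at 12.4, 12.6 and 22.97 CPM against 22.3, 17.8 and 20.6, with groups that overlapped.

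TMPRSS2, a serine protease of the cell surface, departed most in GFP replicate 3. It was at 2.19, 2.06 and 66.8 CPM in GFP cells and 3.85, 3.61 and 30.7 in POU5F1B cells. Both replicate 3 libraries were far above the other 4, and within replicates 1 and 2 the gene met the member limit in no library. The fitted difference of 0.22 ± 1.48 (adjusted p = 0.971 with limma voom) was not distinguishable from 0, and it changed sign in several other fits.

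Transcription and chromatin genes were the list nearest to all tested genes, with a median of 0.06 over 13 members, 9 of them above 0, and 3 with an unadjusted p-value under 0.05. In replicates 1 and 2 their median was 0.42, and in pair 3 it was -0.13. With the GC and length correction their limma voom median was 0.18, beside 0.20 for mitochondrial and antioxidant genes and 0.22 for protein folding and turnover. SETD4, a SET domain methyltransferase, was at 14.7, 14.9 and 17.2 CPM in GFP cells and 22.2, 24.3 and 22.8 in POU5F1B cells (0.57 ± 0.16, limma voom adjusted p = 0.270). ETS2, an ETS family factor, was at 122, 89.7 and 103 CPM against 139, 134 and 177 (0.52 ± 0.17, adjusted p = 0.325 with limma voom). PRMT2, an arginine methyltransferase and the last member toward the telomere, was at 54.3, 47.8 and 53.3 CPM against 54.3, 55.2 and 51.9, with no difference beyond the spread. GABPA, MORC3, BRWD1 and ZBTB21, picked after their values were seen, were higher in replicates 1 and 2 by 1.35, 1.52, 1.84 and 1.32-fold but in pair 3 their differences were -1.90, -1.87, -1.66 and -1.63 on the log2 scale. After the GC and length correction these pair 3 differences were -0.88, -0.94, -0.45 and -0.67.

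In protein folding and turnover, 5 of 9 members were above 0, with a median of 0.28, and 1 had an unadjusted p-value under 0.05. That gene was CSTB, a cysteine protease inhibitor, at 68.8, 65.2 and 82.5 CPM in GFP cells and 94.8, 91.5 and 82.9 in POU5F1B cells (0.32 ± 0.13, limma voom adjusted p = 0.414). SUMO3, a small ubiquitin-like modifier, was at 172, 144 and 116 CPM against 204, 195 and 166, and its groups overlapped by 1 library. CCT8, a subunit of the cytosolic chaperonin, was at 282, 307 and 625 CPM in GFP cells and 470, 508 and 437 in POU5F1B cells. In replicates 1 and 2 it was 1.66-fold higher (adjusted p = 2.8e-05 with limma voom on these libraries), whereas GFP replicate 3 exceeded every POU5F1B library. HSPA13, an HSP70 family chaperone and the first member from the centromere, was at 35.9, 37.3 and 53.9 CPM against 41.0, 53.0 and 30.5 (-0.04 ± 0.25).

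USP16, a histone H2A deubiquitinase, and TTC3, a ubiquitin ligase, showed the largest departures of GFP replicate 3 in the windows from 30 and 35 Mb. USP16 was at 12.7, 22.5 and 101 CPM in GFP cells and 22.02, 31.7 and 15.7 in POU5F1B cells. TTC3 was at 57.4, 67.6 and 278 CPM against 51.7, 69.6 and 51.1. For both genes GFP replicate 3 alone stood out, and the fitted log2 fold changes were -0.46 ± 0.75 and -0.85 ± 0.60 (adjusted p = 0.846 and 0.614 with limma voom). TTC3 had no difference in replicates 1 and 2 (0.964-fold), although PIGP, its neighbour on the opposite strand, was 1.42-fold higher there.

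All 7 mitochondrial and antioxidant genes had a log2 fold change above 0, with a median of 0.28, and 2 had an unadjusted p-value under 0.05. SOD1, the cytosolic superoxide dismutase, was at 253, 261 and 304 CPM in GFP cells and 358, 384 and 336 in POU5F1B cells (0.40 ± 0.11, limma voom adjusted p = 0.285). NDUFV3, a subunit of respiratory complex I, was at 41.7, 40.8 and 62.9 CPM against 69.3, 63.3 and 63.9 (0.47 ± 0.19, adjusted p = 0.394 with limma voom), with GFP replicate 3 just below the lowest POU5F1B library. Of 6 members in membrane traffic, 6 were above 0 and 3 had an unadjusted p-value under 0.05, with a median of 0.35. VPS26C, of the retriever complex that recycles membrane proteins, was at 47.5, 48.5 and 71.4 CPM against 84.5, 80.5 and 74.2 (0.54 ± 0.18, adjusted p = 0.334 with limma voom).

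All 3 chromosome and centrosome genes were above 0, with a median of 0.40, and 2 had an unadjusted p-value under 0.05. PCNT, a scaffold of the centrosome, was at 78.4, 75.2 and 78.8 CPM in GFP cells and 106, 97.5 and 103 in POU5F1B cells (0.40 ± 0.10, limma voom adjusted p = 0.247). DONSON, a replication fork factor, was at 44.4, 40.7 and 49.3 CPM against 56.5, 68.6 and 56.4 (0.43 ± 0.14, adjusted p = 0.338 with limma voom). The 7 remaining members, C2CD2 among them, had a median of 0.22, with 6 above 0 and 2 with an unadjusted p-value under 0.05. In limma voom no list held a member that was lower at an unadjusted p-value under 0.05. In DESeq2, 30 members were higher at that level (6.25% of all genes tested) and 1 was lower.

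**Figure D4:**
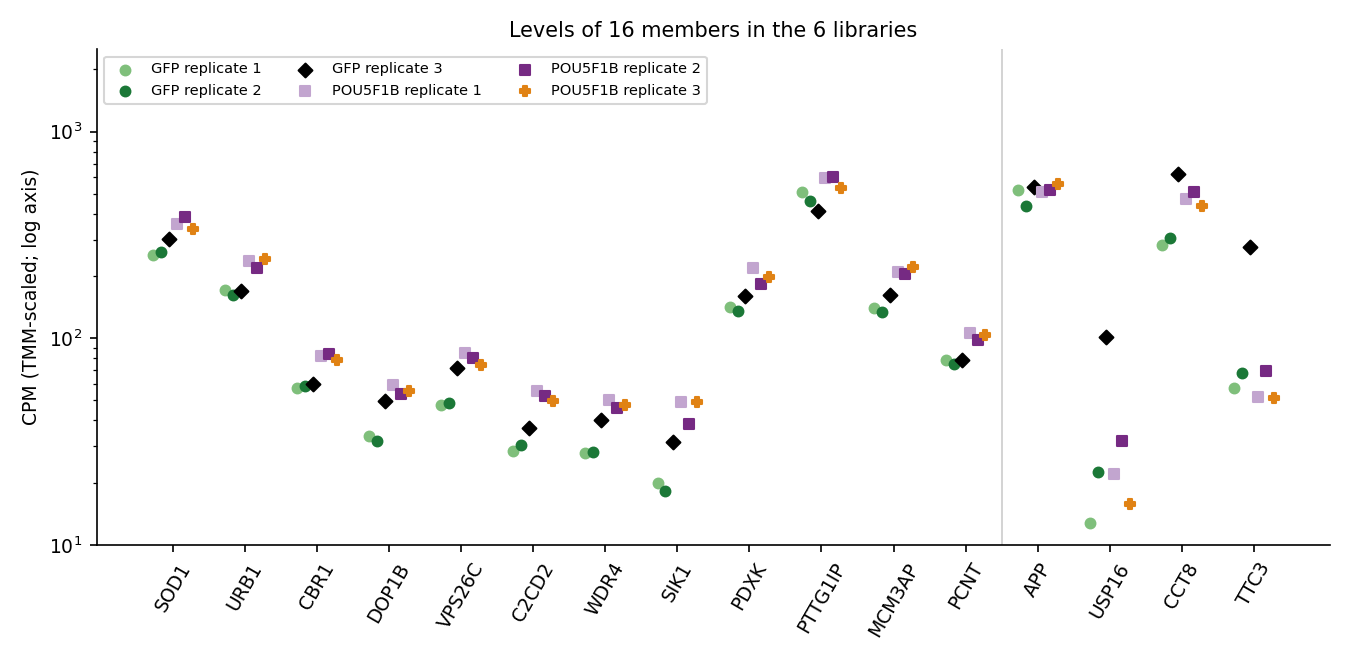
CPM on TMM-scaled library sizes (log axis) of 16 members, in order along the arm within each side of the vertical line; each point is 1 library. Left of the line are 12 members with all POU5F1B libraries above all GFP libraries, and right of it 4 whose groups overlap, of which CCT8, USP16 and TTC3 are highest in GFP replicate 3.

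In GFP replicate 3, 12 members (15%) were more than 2-fold above GFP replicates 1 and 2, against 10.4% of the other protein-coding genes at the same CPM limit. More than 2-fold below were 0 members, for which no share of other genes was counted. The 10th percentile of this log2 difference was -0.24 over members and -0.72 over those other genes. The 12 members above 2-fold had a median GC content of 39.4%, against 50.3% for the other members. TMPRSS2, at 53.9% GC, was 1 of the 12.

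Counts of overlapping genes are uncertain, since the strand setting of the counting was not given in the sources used here. The exons of 32 members overlap a gene on the opposite strand, a protein-coding one for 12. The 48 members without such an overlap had 0.35 as their median log2 fold change, and 45 were above 0.

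To set 21q beside other arms, the same measures were taken over all protein-coding genes at the CPM limit on 2p, 7q and 18q. The pair medians were 0.41, 0.51 and -0.10 on 2p (244 genes), -0.30, -0.30 and -0.13 on 7q (263 genes), and 0.16, 0.19 and -0.65 on 18q (67 genes). On 2p, as on 21q, pairs 1 and 2 were above 0 by similar amounts, whereas pair 3 was slightly below 0 on 2p and slightly above it on 21q. On 7q each pair was below 0. In limma voom the median was 0.23 on 2p, -0.28 on 7q and -0.10 on 18q, against 0.32 over the 21q members. Groups that did not overlap, with POU5F1B higher, made up 25%, 1.52% and 2.99% of the genes of these arms (10.2% of all genes tested). With POU5F1B lower, they were 4 of 244, 95 of 263 and 4 of 67 genes (9.24% of all genes tested). Over the 22 other chromosomes taken whole, the limma voom median ranged from -0.22 to 0.14, the highest on chromosome 2. Differences between arms were not tested, and DNA copy number was not measured here.

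**Figure D5:**
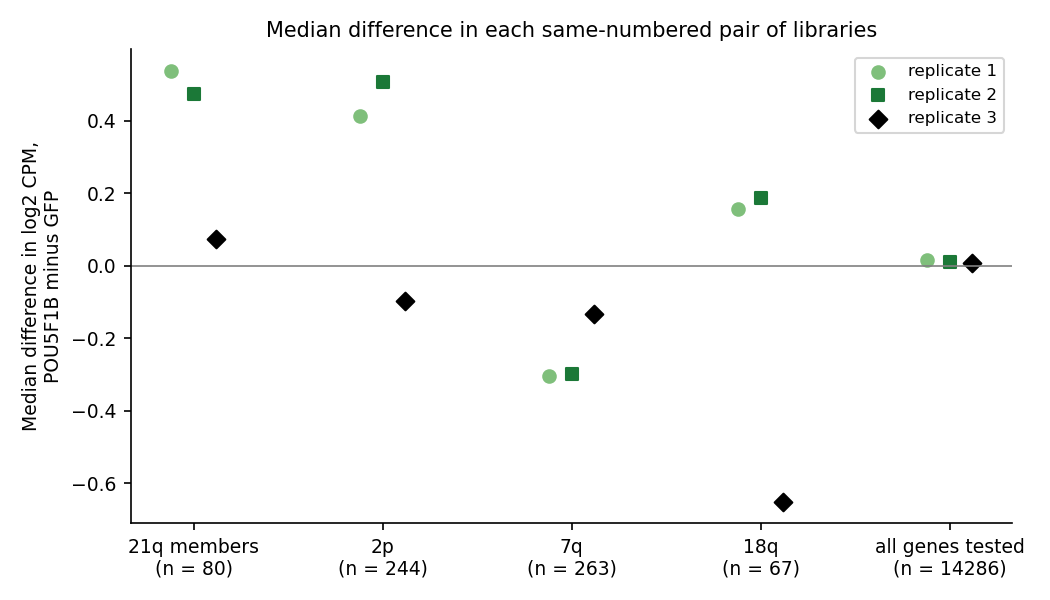
Median difference in log2 CPM, POU5F1B minus GFP, in each same-numbered pair of libraries for the 80 members of 21q, for protein-coding genes at the same CPM limit on 2p, 7q and 18q, and for all 14286 genes tested; points are medians over genes. On 21q replicates 1 and 2 are at 0.54 and 0.47 and replicate 3 at 0.07, while all tested genes are near 0.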

How the data were processed

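PolyA RNA of 6 SW480 libraries (3 GFP, 3 POU5F1B) was sequenced after a stranded TruSeq protocol, and groups and replicate numbers were taken from the sample titles. The authors mapped reads to hg19 with HISAT2, counted uniquely mapped reads with featureCounts on an annotation of genes and transposable elements, and deposited whole-number counts per gene and library without normalization. Unique mapping loses reads of genes with processed copies.

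The members and role lists were chosen with earlier results of these data known. Positions came from GENCODE lifted to GRCh37; 87.4% of identifiers had one. Those without held 0.677% of counts, and 72 of them were at the CPM limit and could not be placed on an arm. CPM for the limit used library totals; other CPM used TMM-scaled sizes, with a prior count of 2 in log2 CPM. After filterByExpr, 14286 genes were tested with limma 3.58.1 (voom) in R 4.3.3, as in the study's methods, with Benjamini-Hochberg adjustment over all of them. Alternatives were edgeR 4.0.16, DESeq2 1.42.0, DESeq2 size factors, library totals, no filter, at least 10 counts in every sample, sample quality weights, the replicate number as a block, replicates 1 and 2 only, leaving out each library, and CPM limits of 8 and 32. A correction by natural splines (5 degrees of freedom) on GC content and transcript length was added after the data had been seen. The tests were first tried on simulated counts. A floor of 3 counts was 0.235 to 0.279 CPM; floors and 95% Wilson intervals cover counting error only.

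The genes named are POU5F1B; the 5 members with the largest rises and falls among those whose groups did not overlap (there were no falls); 2 members with the smallest p-values in each list; the 3 highest by CPM; 2 genes on each side of the CPM limit; the first and last by position; and, per window of 5 or more members, the one whose GFP replicate 3 departed most. Others are said to have been picked after their values were seen.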

Additional observations from a re-analysis of the deposited data

How the results depend on the processing

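The count of members past the threshold was 0 in limma voom. It was 1 with replicates 1 and 2 only and 2 with sample quality weights, and it ranged from 0 to 2 when each library was left out in turn, with 2 without GFP replicate 3; 8.36%, 7.54% and 4.16% of all genes tested passed in these 3 fits. SIK1 passed in these 3 fits, and RIPK4, named after its values were seen, in the latter 2. Members at an unadjusted p-value under 0.05 numbered 63 with replicates 1 and 2 only and 58 with quality weights, all higher (19.5% and 19.9% of all genes tested were higher), and 14 to 52 over the fits that left out one library (18 without GFP replicate 1, 14 without GFP replicate 2, 52 without GFP replicate 3, 14 without POU5F1B replicate 1, 19 without POU5F1B replicate 2 and 25 without POU5F1B replicate 3; the shares of all genes higher were 4.26, 3.54, 13.8, 2.62, 3.52 and 6.43%). The median log2 fold change was 0.49 with replicates 1 and 2 only and 0.27 to 0.45 over the latter fits. The fit with quality weights held all 6 libraries, while the others held fewer. The causes of these differences between fits were not tested.

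The deviations of same-numbered libraries correlated at 0.24, 0.088 and 0.16, so the numbers were not taken to pair the libraries. With the replicate block in limma voom, 0 members passed and the median was 0.32. At an unadjusted p-value under 0.05, 27 members were higher (5.89% of all genes tested) and 0 lower.

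HSPA13 changed sign with GC and length correction (0.21), this correction with the block (0.22), replicates 1 and 2 only (0.33), quality weights (0.19), and without GFP (0.13) or POU5F1B replicate 3 (0.17), with -0.23 to 0.17 over the fits that left out one library. PRMT2 did so with the correction (-0.020) and with the block added (-0.022), and USP16 with replicates 1 and 2 only (0.60), quality weights (0.29) and without GFP replicate 3 (0.36), with a range of -1.07 to 0.36 over those fits. TMPRSS2 changed sign with DESeq2 (-0.87), edgeR (-0.89), the block (-0.45), the block with correction (-0.63), and without GFP replicate 1 (-0.56) or 2 (-0.67) or POU5F1B replicate 3 (-0.82), with a range of -0.82 to 1.81. Of 510 values of named genes over the settings, 489 kept direction and side of the threshold. Window medians moved by more than the library spread in 3 of 102 values and list medians in 13 of 153, none changing sign. That spread includes GFP replicate 3, so the tally can miss shifts made by leaving it out. With replicates 1 and 2 only, the windows from 15, 25, 30, 35 and 45 Mb were not counted as moved. Their medians went from 0.26, 0.19, 0.32, 0.31 and 0.37 to 0.41, 0.45, 0.52, 0.50 and 0.35. Depth limits the genes near 16 CPM most.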

Other observations

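The genes nearest to the CPM limit were CBR3 and YBEY below it, both at 14.9 CPM, and CRYZL1 and PIGP above it, at 16.5 and 17.2 CPM. Their limma voom log2 fold changes were 1.06, 0.19, 0.34 and 0.23, that of CBR3 being above the highest among members (1.02 for SIK1). A further 25 protein-coding genes of 21q under the limit were tested. Their median log2 fold change was 0.43, with 19 of 25 above 0, and their pair medians were 0.49, 0.77 and 0.054.

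The 10 genes of 21q set aside by name or family (CXADR, IFNAR1, IFNAR2, IFNGR2, CHAF1B, MX1, CBS, RRP1B, COL18A1 and COL6A1) had 0.49 as their median log2 fold change. Of these genes, 7 were above 0 (46.9% of all genes tested). The groups of 5 did not overlap, all higher in POU5F1B cells (10.2% of all genes tested). Their pair medians were 0.45, 0.44 and 0.52.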
